A study of Mus musculus with 6 samples.

Results

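Keratin genes were examined on 6 one-colour Agilent arrays of laser-captured mouse autopod tissue, the hand or foot plate of the limb, at embryonic stage E14.5. A keratin gene was any gene that the array's own annotation names Krt followed by a digit. Older dashed names, of which there were 3, were taken in, and keratin-associated proteins were left out. The rule gave 42 genes with 50 probes, out of 19499 named genes on the array. A further 4 keratin genes, Krt79, Krt86, Krt88 and Krt90, carry other names in the annotation and were not members.

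The arrays held 3 tissues in 2 genotypes, with 1 array for each. The interzone is the cell band where a joint forms between skeletal elements, the growth plate is the cartilage beside it, and the interdigital tissue lies between the digits. Controls were wild-type C57BL/6 embryos, and mutants were Tgfbr2Prx1KO littermates on the same background, by convention a loss of the TGF-beta type II receptor in limb mesenchyme, where the Prx1 driver of the recombinase is active. Tissue came from 2 control and 2 mutant embryos, and the sources used here do not say which of them, or how many cells, went into an array. The captured RNA was amplified by PCR before labelling, and 250 ng of product were labelled with Cy3.

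Keratins are the intermediate filament proteins of epithelial cells. They work as pairs of a type I and a type II protein, and the pair changes with the kind and the maturity of the epithelium. Basal epidermal cells carry Krt5 with Krt14 and Krt15, the cells above them switch to Krt1 and Krt10, single-layered epithelia use Krt8 with Krt18 and Krt19, and hair follicles and nails use a large family of their own. Skeletal mesenchyme makes mainly another intermediate filament protein, vimentin. Of the 42 keratins here, 25 were type I and 17 type II. By the classes used below, 3 were basal, 5 suprabasal, 6 of the periderm (the outer cover of embryonic skin) or induced by stress, 5 of simple epithelia, 17 of hair, and 6 of other kinds.

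A level is the log2 signal of a gene's brightest probe minus the 75th percentile of all probes on that array, so that 0 is the 75th percentile and each step of 1 is a doubling. The median processed signal was 103 on the growth plate control array and 340 to 502 on the other 5, and 72.3% to 88.3% of spots were well above background by the scanner software. The 3 controls and the interzone mutant shared slide 1, and the other two mutant arrays lay on slide 2, so genotype and slide cannot be told apart in growth plate and interdigital tissue. Each difference within a tissue compares 1 array with 1 array and has no replicate check. The number of arrays limits the precision. Tgfbr2 itself, targeted in the mutant, was 1.13-fold and 1.50-fold lower in the interzone and interdigital mutant arrays and 12.2-fold higher in the growth plate mutant array, at a probe whose place relative to the deleted part is not given. Cartilage markers (Col2a1, Acan, Col9a1, Matn1, Sox9) had a summed signal of 388 on the growth plate control array, against 118 and 66.6 on the other controls and 49.3 to 59.6 on the mutants.

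All 42 keratins were well above background on at least 1 array and 34 (81.0%) on all 6, close to the 96.6% and 80.0% of all genes. The 8 genes measured on fewer arrays were Krt12, Krt23, Krt25, Krt28, Krt76, Krt80, Krt82 and Krt222. Keratins of the basal, suprabasal, periderm and simple classes, 19 genes, had a summed signal of 30.3, 95.9 and 10.96 times the array's 75th percentile in control interzone, growth plate and interdigital tissue. The same sum was 256, 239 and 209 in the matching mutants, so the 3 mutant arrays lay above the 3 controls. The simple class taken alone overlapped, with 6.34 on the interdigital mutant and 12.4 on the growth plate control. With the deposited ratio table, which divides each array by its median, the sums of the 19 genes overlapped. The lowest mutant sum was then 0.895 times the highest control sum, against 2.17 times with the percentile. In RNA from captured tissue, fewer cells of a type and less RNA per cell cannot be told apart.

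**Figure D1:**
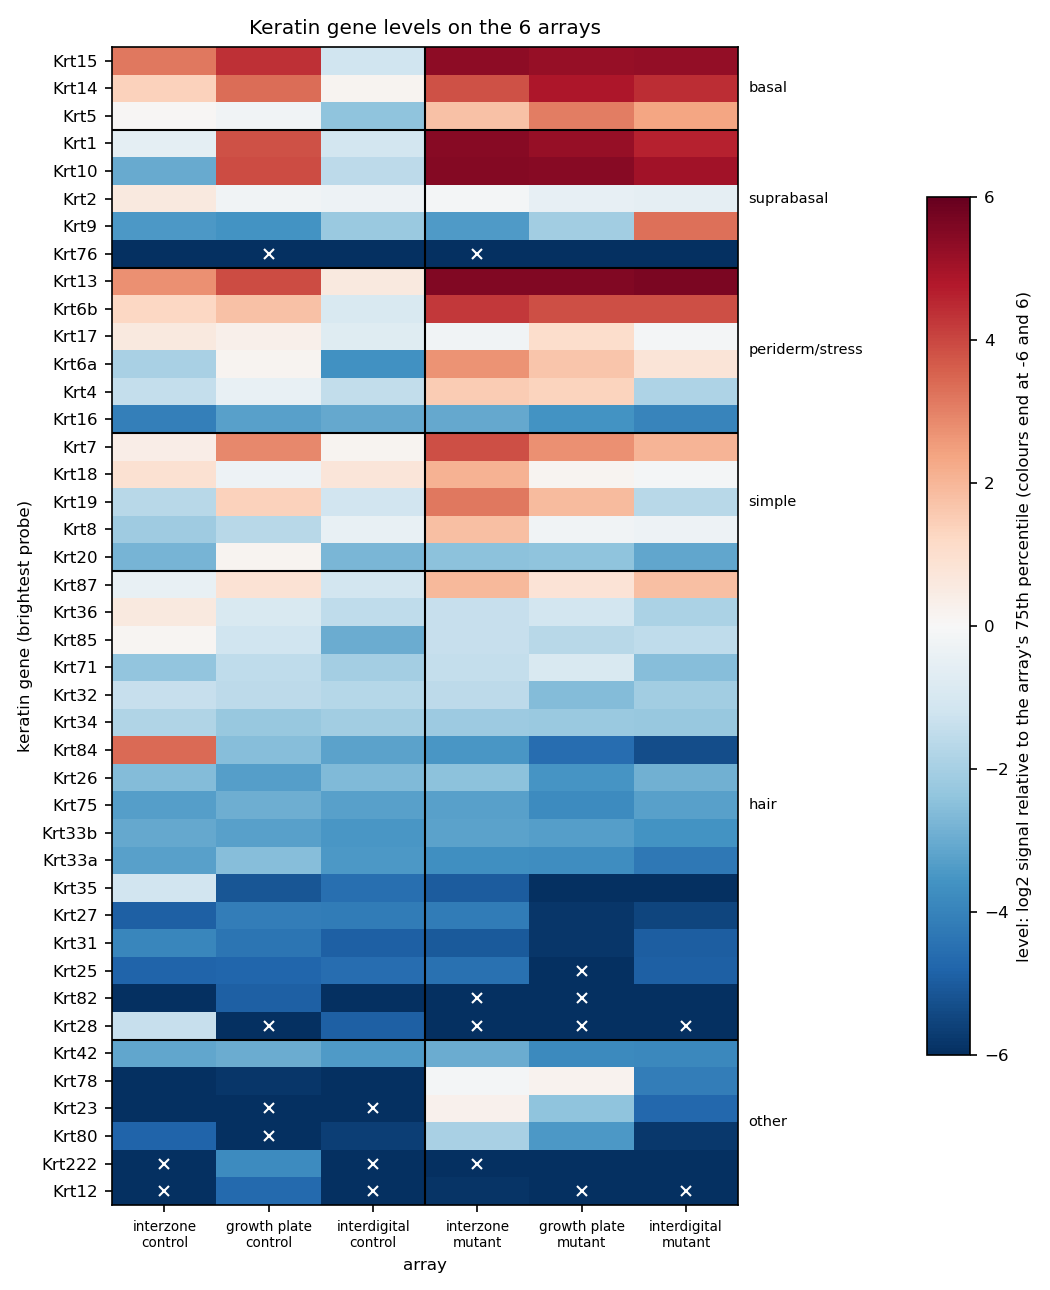
Levels of the 42 keratin genes (lines) on the 6 arrays (columns), as log2 signal relative to each array's 75th percentile, grouped by class and sorted by mean level. White crosses mark values not well above background. Among basal, suprabasal and periderm genes, Krt5, Krt14, Krt15, Krt1, Krt10, Krt6a, Krt6b and Krt13 are higher on each mutant than on any control array. The other suprabasal and periderm genes are not. Krt84 is high on the interzone control array alone, at 3.41.

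The promoters of 5 keratins are shown. Krt5, Krt14, Krt10 and Krt13 were at least 2-fold higher on the mutant array of each tissue than on its control. Krt84 was lower on each. Krt78, which was also higher on each and has a window, is not shown. Windows of Krt36 and of a second Krt13 start were also drawn up but are not shown. Each window is the 250 bases before the RefSeq start site in GRCm38.p6, read 5′ to 3′ on the gene's strand. Capitals mark TATAAA on either strand, TGANTCA (the AP-1 motif, which reads the same on both strands) and, on the gene's strand only, ATAAA that begins 40 to 20 bases before the start.
Krt5, chr15:101712906-101713155, strand -: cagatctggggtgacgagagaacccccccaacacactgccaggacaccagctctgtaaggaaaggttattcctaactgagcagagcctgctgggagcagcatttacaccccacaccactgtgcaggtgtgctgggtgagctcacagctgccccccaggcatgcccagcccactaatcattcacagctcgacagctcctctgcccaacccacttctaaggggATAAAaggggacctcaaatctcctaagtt
Krt14, chr11:100206031-100206280, strand -: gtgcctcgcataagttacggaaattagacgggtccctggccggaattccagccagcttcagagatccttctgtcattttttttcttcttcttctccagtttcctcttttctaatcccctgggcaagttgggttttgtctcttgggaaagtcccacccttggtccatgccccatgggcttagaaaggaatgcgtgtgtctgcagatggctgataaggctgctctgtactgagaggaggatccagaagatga
Krt10, chr11:99389365-99389614, strand -: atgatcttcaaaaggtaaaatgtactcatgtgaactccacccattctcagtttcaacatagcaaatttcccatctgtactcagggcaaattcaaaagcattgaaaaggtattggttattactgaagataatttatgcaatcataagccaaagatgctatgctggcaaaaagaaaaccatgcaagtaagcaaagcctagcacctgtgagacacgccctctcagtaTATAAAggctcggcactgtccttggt
Krt13, chr11:100121567-100121816, strand -: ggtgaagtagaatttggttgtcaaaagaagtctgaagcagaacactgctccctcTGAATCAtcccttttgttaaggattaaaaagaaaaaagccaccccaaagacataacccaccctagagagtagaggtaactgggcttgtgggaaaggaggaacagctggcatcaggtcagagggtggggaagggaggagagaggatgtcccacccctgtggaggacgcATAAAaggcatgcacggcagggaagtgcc
Krt84, chr15:101532821-101533070, strand -: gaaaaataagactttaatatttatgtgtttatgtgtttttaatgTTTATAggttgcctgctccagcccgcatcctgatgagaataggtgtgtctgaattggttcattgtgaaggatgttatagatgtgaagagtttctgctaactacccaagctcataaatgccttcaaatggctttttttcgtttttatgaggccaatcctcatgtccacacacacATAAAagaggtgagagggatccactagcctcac
The letters ATAAA began 40 to 20 bases before the start in 18 of the 29 keratin windows found (62.1%, 28 genes), against 4.25% of the 32851 windows of all genes. This stretch was searched after the sequences had been read. Krt5 and the Krt13 window shown held it 29 bases before the start, Krt84 33 bases and Krt10 25 bases. The Krt14 window, the Krt36 window and the second Krt13 window did not hold these letters there. TATAAA, which overlaps ATAAA, was found on either strand anywhere in 14 of 29 keratin windows (48.3%) and in 12.4% of all. The AP-1 motif was in 2 keratin windows (6.90%), both of Krt13, against 6.75% of all, and the AP-2 palindrome GCCNNNGGC was in 4 (13.8%), those of Krt7, Krt9, Krt18 and Krt42, against 13.7% of all. These are matches of letters, and whether a factor binds there was not measured.

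The basal keratins, which mark the layer of the epidermis that divides, were higher in the mutant array of each tissue with the percentile scaling. With the deposited ratio table, Krt15 was lower in the growth plate mutant than in its control. Krt5, the type II keratin of this layer, stood at 0.06 in control interzone, -0.23 in growth plate and -2.43 in interdigital tissue, and at 1.76, 3.08 and 2.35 in the mutants. The mutant levels were thus above the control levels, by 3.24-fold, 9.94-fold and 27.4-fold. Its partner Krt14 stood at 1.36, 3.37 and 0.19 in the controls and at 3.81, 4.83 and 4.41 in the mutants, which is 5.45-fold, 2.75-fold and 18.6-fold higher. Krt15, a type I keratin of basal and stem-like cells, stood at 3.18, 4.36 and -1.19 in the controls and at 5.38, 5.22 and 5.29 in the mutants. Its folds were 4.60, 1.81 and 89.4, and its 3 mutant levels lay within 0.16 of each other, against a range of 5.55 over the controls. For each of the 3 basal keratins the interdigital control array was the lowest of the 6. On the array's own coordinates, whose build is not named, the Krt5 probe lies on chromosome 15 from 101693240 to 101693299, in the type II cluster, and the Krt15 probe on chromosome 11 from 100241065 to 100241124, in the type I cluster.

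Among suprabasal keratins, the early differentiation pair Krt1 and Krt10 had very different levels on the controls and close ones on the mutants. Krt10, the type I partner, stood at -3.04 in control interzone, 3.90 in growth plate and -1.55 in interdigital tissue, and at 5.49, 5.47 and 5.05 in the mutants. Only the growth plate control came near the mutant levels, and the folds were 370, 2.97 and 97.3. Krt1 followed with -0.57, 3.82 and -1.12 in the controls and 5.46, 5.24 and 4.63 in the mutants, or 65.2-fold, 2.68-fold and 53.7-fold. Over the 3 controls Krt10 ranged by 6.94 and Krt1 by 4.94, and over the 3 mutants by 0.44 and 0.83.

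The second probes of both genes differed from the brightest. That of Krt10 gave 6.16, 2.05 and 4.39 (log2, mutant minus control in interzone, growth plate and interdigital tissue) and so went the same way. That of Krt1, whose coordinates run in the opposite direction, gave 1.21, 0.20 and 0.10, and with the mean over both probes the growth plate difference of Krt1 was 0.81.

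Krt9, the keratin of palm and sole skin, had a pattern of its own. It stood at -3.43, -3.59 and -2.23 in control interzone, growth plate and interdigital tissue and at -3.39, -2.10 and 3.32 in the mutants. The interdigital mutant array was the only one with a level above 0, 47.0-fold over its control. The growth plate mutant was 2.80-fold higher and the interzone pair differed 1.03-fold, although the interzone difference was 1.61 on the log2 scale with normexp background correction. Krt2, a late keratin of the upper epidermis, showed no such spread. Its levels were 0.61, -0.20 and -0.28 in the controls and -0.12, -0.48 and -0.52 in the mutants, all pairs under 2-fold apart. The second probe of Krt2 disagreed, 3.13-fold higher in the interdigital mutant and 2.02-fold lower in mutant interzone, and with the mean over probes the interdigital difference was 0.71 (log2) against -0.23. Krt76, a keratin of the hard palate, stayed between -6.86 and -6.17 and was not well above background on the growth plate control and interzone mutant arrays.

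The periderm and stress-associated keratins divided into 3 that were higher in each mutant array and 3 that were not. Krt13, the type I keratin of the embryonic periderm and internal stratified epithelia, stood at 2.75, 3.94 and 0.60 in control interzone, growth plate and interdigital tissue and at 5.53, 5.55 and 5.66 in the mutants. The mutant levels lay within 0.13 of each other, and the folds were 6.87, 3.07 and 33.3. Krt6b, a type II keratin induced in wounded and rapidly growing epidermis, stood at 1.25, 1.75 and -0.92 in the controls and at 4.26, 3.87 and 3.86 in the mutants, or 8.04-fold, 4.36-fold and 27.4-fold. For Krt6a, its near copy, the levels were -1.96, 0.16 and -3.62 in the controls and 2.69, 1.67 and 0.80 in the mutants, or 25.0-fold, 2.85-fold and 21.4-fold. As close paralogs, Krt6a and Krt6b may cross-hybridize, and their probes cannot be taken as independent.

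Krt4, the usual type II partner of Krt13, did not follow it in interdigital tissue. It stood at -1.42, -0.45 and -1.47 in the controls and at 1.54, 1.33 and -1.84 in the mutants. The interzone and growth plate mutants were 7.77-fold and 3.42-fold higher, and the interdigital mutant 1.29-fold lower, where Krt13 was 33.3-fold higher. Nor did Krt16 and Krt17, the type I stress keratins that pair with the Krt6 proteins, match the folds of Krt6a and Krt6b. Krt17 was 0.57, 0.29 and -0.72 in the controls and -0.23, 1.06 and -0.13 in the mutants, under 2-fold apart in each tissue. Krt16 was -4.12, -3.26 and -3.09 in the controls and -3.05, -3.59 and -3.95 in the mutants. Its interzone mutant was 2.10-fold higher, and its growth plate and interdigital mutants 1.25-fold and 1.81-fold lower.

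Simple epithelial keratins differed most in the interzone. Krt19, a type I keratin of simple epithelia, periderm and some stem cells, stood at -1.67, 1.39 and -1.15 in control interzone, growth plate and interdigital tissue and at 3.18, 1.89 and -1.68 in the mutants. Its interzone mutant was 28.7-fold higher, while the other pairs were under 2-fold apart. Krt8, the type II keratin of simple epithelia, was -2.15, -1.67 and -0.43 in the controls and 1.82, -0.20 and -0.29 in the mutants, or 15.6-fold, 2.77-fold and 1.10-fold higher. Its second probe was 7.39-fold and 1.34-fold higher in the interzone and growth plate mutants and 1.80-fold lower in the interdigital one. For Krt8 the growth plate difference was under 2-fold with quantile scaling (0.94 on the log2 scale), the mean over probes (0.95) and the deposited table (0.36). Its partner Krt18 was 0.90, -0.28 and 0.73 in the controls and 2.07, 0.18 and -0.11 in the mutants, which is 2.24-fold and 1.38-fold higher in interzone and growth plate and 1.80-fold lower in interdigital tissue. The partners thus differed by unequal folds in the interzone.

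Krt7, a type II keratin of ducts and other simple epithelia, stood at 0.40, 2.90 and 0.18 in the controls and at 3.86, 2.75 and 2.06 in the mutants. The interzone and interdigital mutants were 10.97-fold and 3.69-fold higher, and the growth plate pair differed 1.11-fold. The second probe of Krt7 disagreed there, with a growth plate difference of 5.15 on the log2 scale against -0.15. Krt20, a keratin of gut lining and Merkel cells, had its highest level in control growth plate. It was -2.77, 0.17 and -2.74 in the controls and -2.46, -2.43 and -3.13 in the mutants, so the growth plate mutant was 6.09-fold lower.

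The hair keratins held the 2 measured pairs with the largest lower values, those of Krt84 and Krt35 in interzone. Krt84, a type II hair and nail keratin, stood at 3.41 in control interzone, -2.54 in control growth plate and -3.22 in control interdigital tissue, and at -3.51, -4.55 and -5.34 in the mutants. One array, the interzone control, was thus far above the other 5, and the mutants were 122-fold, 4.04-fold and 4.34-fold lower. Krt35, a type I keratin of the hair cortex, was also highest there, with -1.15, -5.13 and -4.51 in the controls and -4.98, -6.22 and -6.06 in the mutants. Its mutants were 14.2-fold, 2.13-fold and 2.93-fold lower, but with normexp background correction its 3 differences were -0.64, -0.91 and -0.79 (log2), all under 2-fold.

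Krt36, another type I hair keratin, stood at 0.60, -0.90 and -1.53 in the controls and at -1.40, -1.10 and -1.90 in the mutants, 4.01-fold lower in interzone and under 2-fold apart elsewhere. A second probe of Krt36 was 55.4-fold lower in interzone, 2.93-fold higher in growth plate and 2.65-fold lower in interdigital tissue. Krt28, of the inner root sheath, was well above background on 2 arrays only, at -1.39 in control interzone and -4.90 in control interdigital tissue, which was at least 34.6-fold and at least 7.38-fold above the mutants. Krt84, Krt35, Krt36 and Krt28 were each highest on the interzone control array. So were the hair keratins Krt85, Krt32, Krt31, Krt33b and Krt34, though Krt33b and Krt34 ranged by only 0.49 and 0.46 over the 6 arrays. The remaining hair keratins were highest on other arrays. The share of all genes with the interzone control highest was not counted, so this cannot be read as a trait of hair keratins. Among the other hair keratins, Krt87 went the opposite way, with -0.43, 0.85 and -1.11 in the controls and 1.93, 0.81 and 1.80 in the mutants, or 5.16-fold higher, 1.03-fold lower and 7.52-fold higher. Krt85 was 0.13, -1.18 and -2.96 in the controls and -1.38, -1.67 and -1.52 in the mutants, 2.85-fold and 1.40-fold lower in interzone and growth plate and 2.71-fold higher in interdigital tissue. Krt71 was -2.35, -1.54 and -2.02 in the controls and -1.43, -0.93 and -2.53 in the mutants, and Krt32 was -1.37, -1.55 and -1.72 against -1.57, -2.61 and -2.06. Only the growth plate pair of Krt32 passed 2-fold, at 2.08-fold lower. The remaining 9 hair keratins had levels between -7.56, for Krt25 on the growth plate mutant array where it was not well above background, and -1.82, for Krt34 on the interzone control array.

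Keratins outside these classes held some of the largest higher values. Krt78, a type II keratin of stratified epithelia, stood at -6.43, -5.81 and -6.25 in control interzone, growth plate and interdigital tissue and at -0.13, 0.20 and -4.16 in the mutants, or 78.4-fold, 64.8-fold and 4.25-fold higher. With normexp background correction the interdigital difference of Krt78 was 0.80, under 2-fold. Krt23, a type I keratin of simple and stratified epithelia, was -6.79 in control interzone and not well above background on the other controls, and stood at 0.28, -2.43 and -4.71 in the mutants. This is 133.7-fold higher in interzone, and in growth plate and interdigital tissue a difference of at least 17.2-fold and of at least 5.64-fold upward. Both genes were thus highest on the interzone or growth plate mutant array and lower on the interdigital one. Krt80 was 7.34-fold and at least 8.66-fold higher in the interzone and growth plate mutants and 1.10-fold lower in the interdigital mutant. Krt222 was 7.13-fold lower in the growth plate mutant. Krt42 stayed between -3.86 and -2.95, under 2-fold apart in each tissue, and Krt12 was well above background on 2 arrays only.

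Counted over the whole family, the interzone pair had the most higher keratins. Of the 37 keratins measured on both arrays of this pair, 18 were at least 2-fold higher in the mutant and 5 lower, while 17.8% of all measured genes were higher and 22.8% lower. The higher ones were 3 of 3 basal, 2 of 4 suprabasal, 5 of 6 periderm and stress, 4 of 5 simple and 1 of 15 hair keratins, and the 5 lower ones were hair keratins. The class medians were 2.20, 3.04, 2.87, 3.46 and -0.20 (log2), against -0.11 for all genes. Among all genes at least 2-fold apart, 43.9% were higher in the interzone mutant, a share that was 72.2% with normexp background correction and 54.3% with the deposited ratio table. With normexp 27 keratins were at least 2-fold higher and 3 lower. The hair median was then 1.15, so the direction of the hair class as a whole depended on the background correction.

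In growth plate, 11 of 35 keratins were at least 2-fold higher in the mutant and 8 lower, beside 22.1% and 32.6% of all genes. By class these were 2 of 3 basal, 3 of 4 suprabasal, 4 of 6 periderm and stress and 1 of 5 simple keratins higher, and 6 of 14 hair keratins and Krt20 among those lower. The medians were 1.46, 1.46, 1.57, 0.46 and -0.66, against -0.45 for all genes. This pair depended most on the scaling. The deposited ratio table put the median of all genes at -1.56, and 3 keratins were then higher (Krt5, Krt6b and Krt78, at 2.20, 1.01 and 4.90 on the log2 scale) and 19 lower. Of all genes past 2-fold, 40.4% were higher in the growth plate mutant, against 16.8% with that table and 54.4% with the percentile over probes detected on each of the 6 arrays. The basal, suprabasal and periderm medians kept their sign with the table, at 0.35, 0.34 and 0.45.

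In interdigital tissue, 13 of 38 keratins were at least 2-fold higher in the mutant and 3 lower, beside 10.1% and 16% of all genes. Here 3 of 3 basal and 3 of 5 suprabasal keratins were higher, with medians of 4.77 and 5.55, and 3 of 6 periderm and stress keratins with a median of 2.50. Only Krt7 was higher among the 5 simple keratins, whose median was -0.39, and of the hair keratins, at a median of -0.33, 2 were higher and 3 lower. The median of all genes was -0.18. Among all genes past 2-fold, 38.7% were higher, and 49.2% and 51.3% with quantile scaling and the deposited table.

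**Figure D2:**
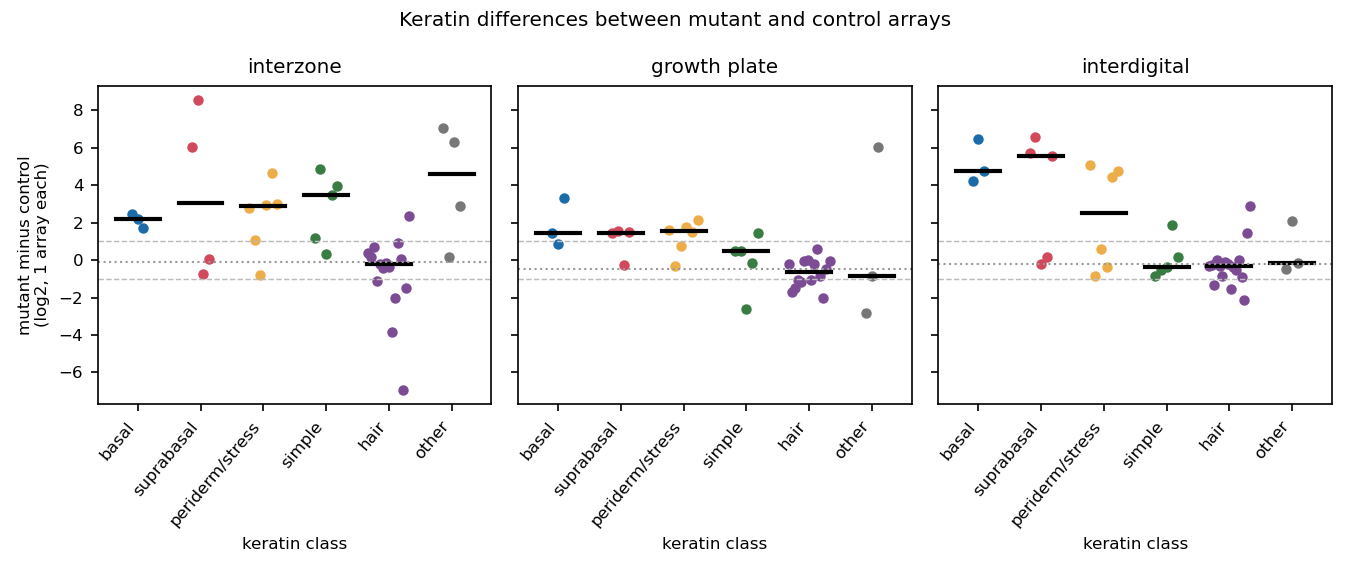
Mutant minus control differences (log2, 1 array each) of keratins well above background on both arrays, by class and tissue. Points are genes, black bars class medians, dashed lines 2-fold and the dotted line the median of all genes. Basal medians are 2.20, 1.46 and 4.77, and the simple median is 3.46 in interzone and -0.39 in interdigital tissue.

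Of the 34 keratins measured on all 6 arrays, 8 (Krt1, Krt5, Krt6a, Krt6b, Krt10, Krt13, Krt14 and Krt78) were at least 2-fold higher in the mutant array of each tissue, beside 1.61% of the 15604 genes measured on all 6. Krt35 and Krt84 were at least 2-fold lower in each, beside 1.91% of genes. With the deposited table Krt5, Krt6b and Krt78 alone of the 8 passed 2-fold in growth plate, and with normexp Krt78 did not pass in interdigital tissue nor Krt35 in any. Levels did not overlap between genotypes, mutants above, for 10 keratins (the same list with Krt8 and Krt15 added), beside 4.48% of all genes. Of these, 5 were left with the deposited values, Krt5, Krt6b, Krt8, Krt13 and Krt78, beside 3.42%. Levels did not overlap, mutants below, for Krt31, Krt33a and Krt84, beside 12.2% of all genes, and none of these 3 was left with quantile scaling, normexp or the deposited table. The range over the 3 mutant arrays was smaller than over the 3 controls for 22 of 34 keratins, beside 60% of all genes. Both comparisons of levels were added after the data were seen.

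A fit of tissue and genotype over the 6 arrays with limma asked for a genotype difference shared by the 3 tissues. It called 0 of 42 keratins and 0 of 18842 genes at an adjusted p under 0.05 (Benjamini-Hochberg over all genes), beside 12 keratins and 6.73% of all genes at an unadjusted p under 0.05. Of these 12 keratins 9 were higher and 3 lower in the mutants. Their number was 5 without the interdigital pair, 6 without the interzone pair and 15 without the growth plate pair. Krt6b had a mean difference of 3.30 ± 0.70 (moderated SE of the limma fit over 3 tissue pairs), higher in 3 of 3 tissues. For Krt5 it was 3.26 ± 0.76, for Krt10 5.57 ± 1.50 and for Krt84 -3.69 ± 1.21, each with the same sign in 3 of 3 tissues. These SEs draw the variance of each gene toward that of all genes, so they are not the spread of its own pair differences alone. The limma adjusted p was 0.67 for each of them. With slide added as a block, 0 keratins passed and 10 had an unadjusted p under 0.05. In that fit the genotype difference came from the interzone pair alone, since the growth plate and interdigital mutants lay on slide 2. It therefore does not check a difference shared by the 3 tissues. The p-values rest only on the spread between these arrays, with the variance of each gene drawn toward that of all genes. The arrays may share embryos.

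The controls themselves differed by tissue. Between growth plate and interdigital controls, 16 of 36 keratins were at least 2-fold higher in growth plate and 3 lower, beside 24.8% and 24.9% of all genes. Of the basal keratins 3 of 3 were higher, and of the periderm and stress keratins 5 of 6. The medians were 3.18 (basal), 2.51 (suprabasal), 1.85 (periderm and stress), 2.54 (simple) and 0.40 (hair). Interzone compared with growth plate controls had 5 of 36 keratins higher and 11 lower, beside 24.9% and 23.9%. Against the interdigital control, 13 of 39 keratins were higher in control interzone and 4 lower, beside 14.6% and 14.9%, including 3 of 3 basal keratins. The count of 16 was 30 with quantile scaling and 31 with the deposited table. The 2 lowest of the 6 arrays were the interzone and interdigital controls for 10 of 34 keratins (Krt1, Krt6a, Krt6b, Krt7, Krt10, Krt13, Krt14, Krt15, Krt78 and Krt87), beside 5.08% of all genes, a count added after the data were seen.

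Among the mutants the 3 basal keratins, Krt1, Krt2 and Krt10 ranged less than among the controls. In all, 22 of 34 keratins did so, beside 60% of all genes. Krt9 ranged more, by 6.71 against 1.36. So did, among others, Krt4 (3.38 against 1.03), Krt19 (4.86 against 3.06), Krt8 and Krt18. Interzone against interdigital mutants had 13 of 37 keratins at least 2-fold higher and 1 lower, beside 18.2% and 18%, with no basal keratin past 2-fold and 4 of 5 simple keratins higher. Interzone against growth plate mutants had 13 of 36 higher and 4 lower, beside 21.4% and 18.2%, and simple keratins again were higher in 4 of 5. Growth plate against interdigital mutants had 7 of 38 higher and 1 lower, beside 13.2% and 16.2%. The 1 lower keratin in both comparisons with the interdigital mutant was Krt9.

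Many genes that anchor keratin filaments or mark epidermis were also higher on the mutant arrays of interzone and interdigital tissue, and fewer in growth plate. Of 24 such genes listed, 23 were on the array, and in the mutants 16 of 21 measured were at least 2-fold higher in interzone and 0 lower, 9 of 19 higher and 2 lower in growth plate (Plec and Itga6), and 13 of 19 higher and 0 lower in interdigital tissue. The shares over all genes were, as above, 17.8% and 22.8%, 22.1% and 32.6%, and 10.1% and 16%. Flg and Dsc3, each well above background on only 1 array of each pair, were outside the counts. Flg was at least 1.73-fold and at least 2.15-fold lower in the interzone and interdigital mutants and at least 8.07-fold higher in growth plate. Dsc3 was higher in the interzone, growth plate and interdigital mutants, by at least 150-fold, 59.5-fold and 129-fold. Dsg3 and Ivl were 1.82-fold and 1.22-fold lower in the interdigital mutant, though higher in the other mutants. Dsp, the plakin that ties keratins to desmosomes, stood at 0.95, 3.29 and -5.02 in the controls and at 4.72, 4.23 and 4.21 in the mutants. Like Krt10 and Krt1, it was near the mutant level on the growth plate control alone. Pkp3, a desmosomal plaque protein, did not share this and was -2.43, -2.38 and -2.31 in the controls and 3.88, 3.74 and 2.27 in the mutants, which is 79.0-fold, 69.9-fold and 23.8-fold higher.

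For Evpl, a cornified envelope plakin, the 3 mutant arrays exceeded their controls 36.7-fold, 16.8-fold and 9.20-fold. Cdh1, the epithelial cadherin, was 52.7-fold higher in mutant interzone and not well above background on the growth plate and interdigital controls, at least 357-fold and at least 287-fold below their mutants. Trp63, the master regulator of stratified epithelium, was likewise not well above background on those 2 controls and was measured in both interzone arrays, at levels of -0.48 (control) and -0.77 (mutant). The summed signal of the 23 genes was 23.8, 78.5 and 18.2 on the interzone, growth plate and interdigital controls and 146, 132 and 102 on the mutants. With the deposited table these sums overlapped, the lowest mutant at 0.536 times the highest control. The part of these genes in the keratin differences was not tested.

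**Figure D3:**
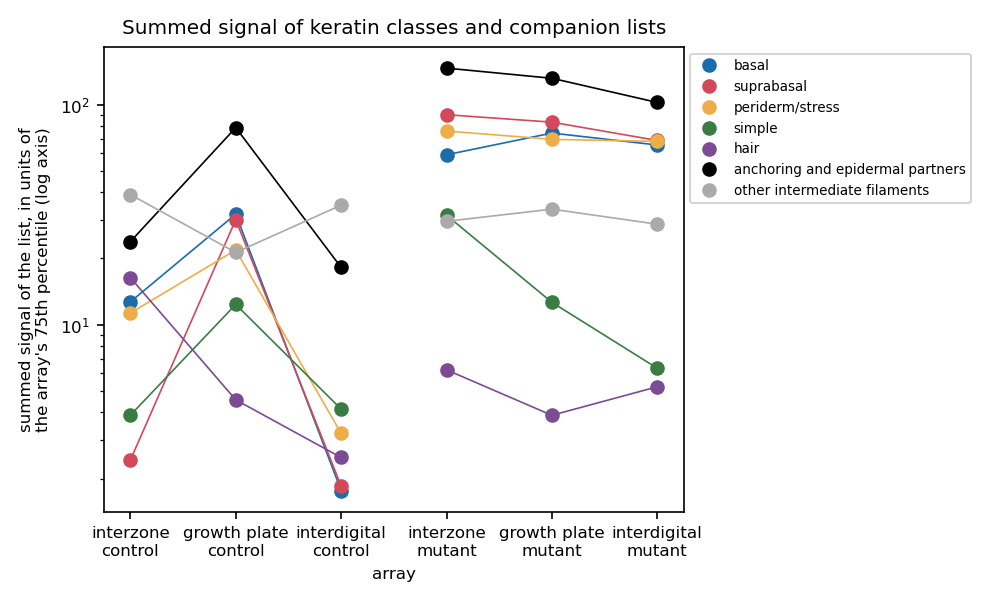
Summed signal (log axis, in units of each array's 75th percentile) of keratin classes, of genes that anchor keratins or mark epidermis, and of other intermediate filament genes on the 6 arrays. On this scale, basal, suprabasal, periderm and partner sums are higher on each mutant than on any control array (with the deposited table only the periderm sums are), while the hair sum is highest on the interzone control, at 16.3. The simple sums overlap between genotypes.

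Other intermediate filament genes were counted in the same way. Vim, which encodes vimentin, stood at 4.25, 3.75 and 4.08 in the controls and at 3.47, 3.86 and 3.75 in the mutants, under 2-fold apart in each tissue. Of 16 such genes, among 15 measured in interzone 3 were higher in the mutant by 2-fold or more and 1 lower, 3 of 13 higher and 3 lower in growth plate, and 3 of 15 higher and 5 lower in interdigital tissue. The higher counts in interzone and growth plate lie near the 17.8% and 22.1% of all genes. In interdigital tissue the 3 higher and 5 lower of 15 compare with 10.1% and 16% of all genes. The 1 lower of 15 in interzone compares with 22.8%, and the 3 lower of 13 in growth plate with 32.6%. The summed signal of skeletal muscle genes ran from 2.32 to 21.9 over the controls and from 3.18 to 20.5 over the mutants, and that of macrophage genes from 0.833 to 8.56 and from 4.90 to 7.36. In interzone, though, both lists were higher in the mutant together with the keratins, from 2.32 to 20.5 for muscle and from 0.833 to 7.36 for macrophage genes, with 4 of 5 genes at least 2-fold higher in each. Interzone markers (Gdf5, Gdf6, Osr2, Sfrp2) were lower there, with a summed signal of 38.8 on the control and 9.31 on the mutant array. The part of these lists in the interzone differences was not tested. In growth plate 4 of 5 muscle genes were at least 2-fold lower in the mutant. The endothelial sum was 2.05, 0.683 and 9.32 on the interzone, growth plate and interdigital controls and 2.92, 5.77 and 4.56 on the mutants. Merkel cell and melanocyte genes had sums of at most 0.525 on all arrays, with Sox2 and Tyr not well above background on any.

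**Figure D4:**
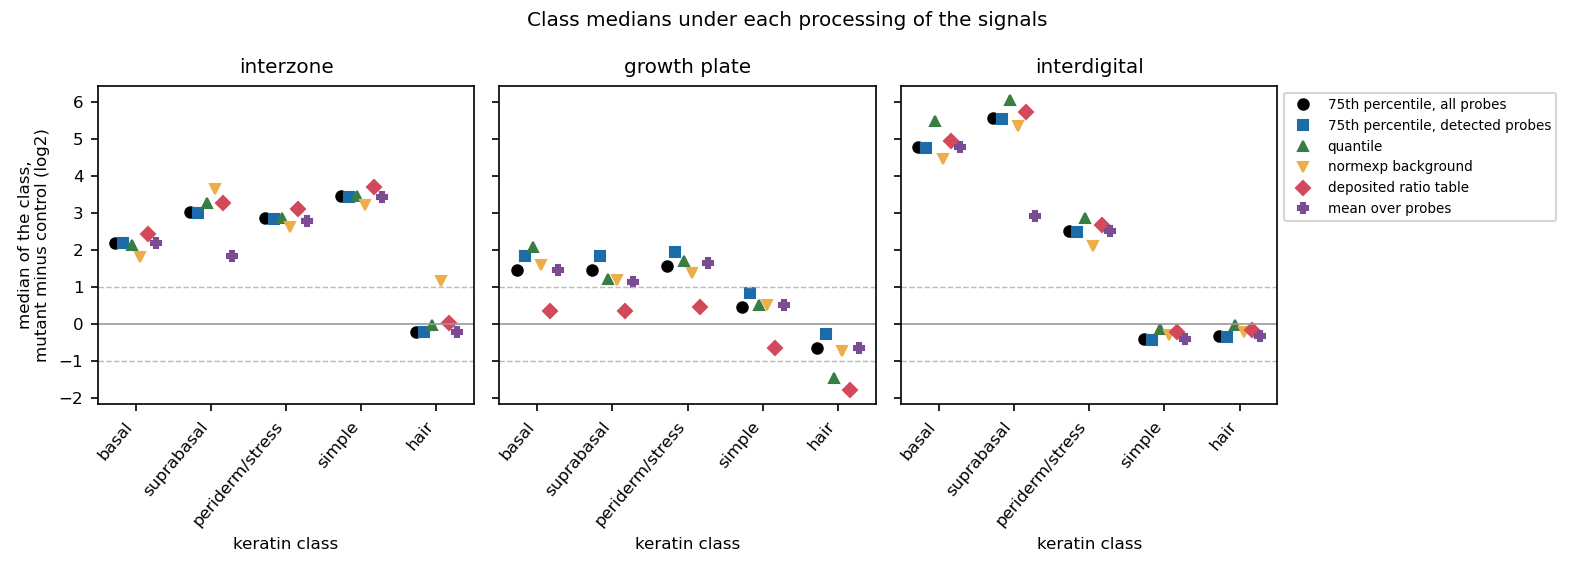
Class medians of the mutant minus control difference (log2) in the 3 tissues under the 6 ways of processing the signals. Interzone and interdigital basal, suprabasal and periderm medians stay above 1 in each, while the growth plate medians are 0.35, 0.34 and 0.45 with the deposited ratio table and the interzone hair median is 1.15 with normexp.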

How the data were processed

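The scanner files the authors deposited hold spot intensity, and per the file headers Agilent Feature Extraction 9.5.1.1 subtracted the background from the processed intensity. The deposited value table holds a linear ratio, the processed signal over the array's median, as found by setting it against the scanner values. The sources used here do not name the build of the probe coordinates.

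Here control and outlier spots were left out, spots of 1 probe averaged, and log2 processed signal set relative to each array's 75th percentile. No spot was saturated. Probes were named by accession (23050), symbol (6564) or older symbol (3064) through a RefSeq table of GRCm38.p6, 8407 had no match, and Krt85 kept the file's name. A gene took its brightest probe over the 6 arrays. "At least N-fold" sets a gene well above background on 1 array against the higher of its own signal on the other array and the lowest signal well above background there. The genotype fit used limma 3.58.1 (R 4.3.3) on genes well above background on at least 1 array and was tested on simulated data.

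Groups came from the titles: 5 descriptions speak of irradiated human blood, while all other labels name mouse limb. Keratin genes and all lists were chosen with earlier results of these data known. Members of the basal to simple classes, the 5 other keratins with the highest mean and those past 8-fold in a pair are given on each array; others were chosen after their values were seen. Alternatives were a percentile over detected probes, quantile scaling, normexp (offset 50), the deposited table, the mean over probes, no filter, 4-fold, slide as a block, and leaving out each tissue pair.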

Additional observations from a re-analysis of the deposited data

Results flagged for a closer look

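Krt85, a type II hair keratin, differed in opposite directions in 2 tissues. Its mutant minus control difference was -1.51 (log2) in interzone and 1.44 in interdigital tissue, each from 1 array per genotype, and the difference between the tissues was not tested.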

How the results depend on the processing

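Of 110 single keratin differences measured on both arrays of a pair, 58 were at least 2-fold, and 41 stayed so in the same direction under all 5 other ways of making the values. Among the 58, 1 changed sign, Krt31 in interzone, from -1.13 to 1.64 with normexp. The limma fit called 0 keratins under each alternative and without each tissue pair, while the deposited table called 12 genes of 18842, none of them keratins. The lowest limma adjusted p of a keratin ranged from 0.229 with that table to 0.838 without the interdigital pair. The limma fit pairs arrays by tissue, and beyond that no block by replicate number could be fitted, since the labels carry none.

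Counts of keratins past 2-fold, mutant against control, moved in these cases among others. The cause was not tested. With normexp, 27 were higher (18 in the main analysis) and 3 lower (5) in interzone, and 1 was lower in interdigital tissue (3). In growth plate (11 higher, 8 lower), 5 were lower with the detected-probe percentile, 13 with quantile scaling and 19 with the deposited table, which left 3 higher. Without a filter on dim probes 5 were lower in interdigital tissue. At 4-fold, by construction, 3 were lower in interzone, 3 higher and 3 lower in growth plate and 1 lower in interdigital tissue. Growth plate medians with the table were 0.35 (basal), 0.34 (suprabasal) and 0.45 (periderm), and the hair median was -1.77, or -1.45 with quantile scaling; the interzone hair median was 1.15 with normexp.

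Among controls, keratins lower in interzone than growth plate were 21 with quantile scaling and 25 with the table (11 in the main analysis), and 2 were higher with the table (5). Keratins lower in interzone than interdigital tissue were 2 with either (4). Keratins higher in growth plate than interdigital tissue were 30 and 31 (16), and those lower were 1 with quantile scaling, 1 with normexp, 0 with the table and 5 with the detected-probe percentile or no filter (3). At 4-fold the interzone and growth plate controls had 2 higher and 7 lower, and the other two control comparisons 0 lower. Among mutants, normexp gave 22 higher in interzone than interdigital tissue (13) and the mean over probes 2 lower (1). Growth plate against interdigital mutants had 2 lower (1) with the detected-probe percentile, quantile scaling, normexp, the mean over probes and no filter. At 4-fold the interzone mutant had 2 higher and 0 lower against growth plate and 7 higher against interdigital tissue.

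Compared after the data were seen, the lowest mutant sum over the highest control sum was below 1 with the deposited table for the 19 keratins of the first 4 classes together (0.895), the basal (0.849) and suprabasal (0.943) keratins and the epidermal partners (0.536), and above 1 for these lists with the other values. For the simple keratins it was below 1 with each of the values, at 0.513 in the main analysis.

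The dim growth plate control array, with 72.3% of spots well above background, limits each comparison that uses it.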

Other observations

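Erbb3, a receptor that epithelia make as well as Schwann cells, stood at -0.60, -1.94 and -0.88 on the interzone, growth plate and interdigital controls and at 3.10, 2.44 and 2.45 on the mutants, so the mutant levels lay above the control levels. It was chosen for mention after its values were seen.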
